A study of Mus musculus with 8 samples.

Results

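The proteasome is the multi-subunit protease that degrades most ubiquitin-tagged proteins of the cell, and its genes were followed, with and without the ubiquitin ligase gene Cop1, in FT1CL, a line of mouse acute myeloid leukemia. Genes were taken by symbol, as those beginning Psm, a letter from a to g and a digit. The rule matched 47 of the 13378 genes in the deposited junction table. Of these, 46 code for proteasome subunits, activators, an inhibitor or assembly factors: 18 of the core, 20 of the cap, 4 activators, 1 inhibitor and 3 core assembly factors. The other match, Psmc3ip, codes for a meiotic recombination factor and shares only its name, and is left out of every count.

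The study compared 4 libraries labelled Cop1WT (genotype Cop1 +/+, no treatment) with 4 labelled Cop1KO, in which 4-hydroxy-tamoxifen was used to delete Cop1. Genotype and drug therefore changed together and cannot be told apart. Both groups share their origin: bone marrow of 8-week-old mice carrying a conditional Cop1 allele and Rosa26-Cre-ERT2, taken after 5-fluorouracil at 150 mg/kg, transduced with a pMYs retrovirus carrying Trib1 and kept in interleukin-3. FT1CL is 1 line, and no label names separate cultures behind the 4 libraries of a group, so the p-values measure the spread between libraries alone, and that spread may be technical.

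The proteasome is built from a core particle and a cap. In the core, stacked rings of alpha subunits (Psma genes) guard a chamber lined by beta subunits (Psmb genes), of which Psmb5, Psmb6 and Psmb7 carry the cutting sites. The cap holds a ring of ATPases (Psmc genes) that unfolds substrates, and non-ATPase subunits (Psmd genes) that bind and remove ubiquitin. In blood cells and under interferon, newly built cores can take up Psmb8, Psmb9 and Psmb10 in place of Psmb5, Psmb6 and Psmb7, which gives the immunoproteasome, a form known for making peptides for class I antigen presentation.

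Levels are junction reads per 1000000 junction reads of the library (RPM), summed over the exon junctions of a gene. Of the 470 junctions of the 47 genes, 364 reached 100 reads, and 428 of their 2912 values (14.7%) had dropped to 6 reads or fewer in a library where the gene's other junctions pointed to 100 or more. Over all genes, 6.73% of such values had dropped. Affected were 116 junctions in 30 proteasome genes, so 2 sums were fitted: over all junctions, which was the planned main test, and over complete junctions, those without a dropped value in any library. Values below for which no sum is named are on complete junctions. The dropped share of the proteasome junctions was 15.9% ± 1.15 (SD, n = 4) in wild type and 13.5% ± 1.84 (SD, n = 4) in knockout libraries (exact permutation test, two-sided, p = 0.114). Its part in any single difference was tested only by comparing both sums.

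Across the libraries, junction reads ran from 17333302 to 22469109. Cop1 reads over all junctions stood at 162 ± 2.92 RPM in the Cop1WT and at 73.7 ± 6.47 RPM in the Cop1KO group (SD, n = 4 each), 45.4% of wild type and without overlap. Myeloid markers (Ptprc, Spi1, Kit, Mpo, Itgam and Csf2rb) were present, with a summed level of 1560 to 3030 RPM in wild-type cells and 3590 to 5200 RPM in knockout libraries. Csf2rb gave the largest part, with means of 1170 and 2490 RPM. On complete junctions 4 of the 6 were called higher, beside 10.5% of all genes. Mpo was not called, nor was Kit, whose mean was lower in knockout libraries (111 and 62.4 RPM). Summed T cell, B cell and fibroblast markers stayed below 1 RPM in every library. The 10 maturing-neutrophil genes summed to 10.8 to 47.7 RPM in wild-type cells, and to 4910, 10300, 4380 and 359 RPM in knockout libraries 1 to 4, and 7 of the 10 were called higher on either sum, beside 8.49% of all genes over all junctions and 10.5% on complete junctions. Macrophage genes summed to 69.4 to 609 RPM and 325 to 1210 RPM, and erythroid genes to 29.7 to 121 RPM and 13.6 to 126 RPM. Knockout library 4 stood apart from the other 3 knockout libraries by its neutrophil genes. Results on complete junctions are therefore also given below without both libraries numbered 4, for named genes whose call that changes.

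The largest differences on complete junctions were those of the immunoproteasome genes: Psmb8, Psmb9 and Psmb10 were each at 51.3% to 57.5% of their wild-type level on complete junctions, while the subunits they replace were at 90.1% to 106%. To show what sits near the start of these genes, the 250 bases before the RefSeq start (build GRCm38.p6) were taken. This was done for both immunoproteasome genes of chromosome 17 and their constitutive counterparts. It was also done for Psmc1 and Psme3, the cap ATPase gene and the activator gene with the largest falls. The starts used for Psmb8 and Psmb9 lie inside the genes as annotated in GENCODE (34197721 to 34201454 and 34181987 to 34187764). Their windows are therefore within those genes and not upstream of them. The starts used for Psmb5 and Psmc1 also lie inside the genes as annotated (54614119 to 54618022 and 100110154 to 100123405). The last bases of those windows are therefore within the gene. Positions are chr17:34197945-34198194 (Psmb8, plus strand), chr17:34187331-34187580 (Psmb9, minus), chr14:54617996-54618245 (Psmb5, minus), chr11:70525107-70525356 (Psmb6, plus), chr12:100109952-100110201 (Psmc1, plus) and chr11:101315963-101316212 (Psme3, plus). Each is written 5′ to 3′ on the gene's strand. Capitals mark any match on either strand to TGACNNNGC (core of the antioxidant response element), CCAAT (the NF-Y box), an interferon response element (TTTC, any 2 bases, TTTC), TTCNNNGAA (a STAT site) or CGGAAG (the ETS core).
Psmb8: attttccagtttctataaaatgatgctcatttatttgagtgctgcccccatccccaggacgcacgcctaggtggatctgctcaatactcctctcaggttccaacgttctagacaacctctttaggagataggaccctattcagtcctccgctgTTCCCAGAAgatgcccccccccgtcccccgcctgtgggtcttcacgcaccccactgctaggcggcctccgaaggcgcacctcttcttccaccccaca
Psmb9: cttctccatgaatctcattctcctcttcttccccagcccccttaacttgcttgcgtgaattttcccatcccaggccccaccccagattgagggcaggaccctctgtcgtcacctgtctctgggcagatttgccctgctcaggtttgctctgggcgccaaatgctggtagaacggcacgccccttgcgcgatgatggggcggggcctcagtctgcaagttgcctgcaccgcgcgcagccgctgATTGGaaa
Psmb5: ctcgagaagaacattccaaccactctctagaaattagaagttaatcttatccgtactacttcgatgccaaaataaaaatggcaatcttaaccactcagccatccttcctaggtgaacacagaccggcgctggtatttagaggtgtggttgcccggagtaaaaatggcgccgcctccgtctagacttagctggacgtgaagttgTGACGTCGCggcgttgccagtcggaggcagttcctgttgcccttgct
Psmb6: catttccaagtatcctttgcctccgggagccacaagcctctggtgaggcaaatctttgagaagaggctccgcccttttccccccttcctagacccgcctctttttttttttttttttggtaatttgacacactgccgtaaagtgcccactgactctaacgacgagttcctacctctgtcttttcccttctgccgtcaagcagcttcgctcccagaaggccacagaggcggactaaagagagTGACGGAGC
Psmc1: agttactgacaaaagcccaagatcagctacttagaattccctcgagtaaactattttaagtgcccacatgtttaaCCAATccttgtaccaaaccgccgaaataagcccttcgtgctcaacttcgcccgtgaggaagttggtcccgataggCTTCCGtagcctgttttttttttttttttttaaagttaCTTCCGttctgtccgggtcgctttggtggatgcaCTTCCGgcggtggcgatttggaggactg
Psme3: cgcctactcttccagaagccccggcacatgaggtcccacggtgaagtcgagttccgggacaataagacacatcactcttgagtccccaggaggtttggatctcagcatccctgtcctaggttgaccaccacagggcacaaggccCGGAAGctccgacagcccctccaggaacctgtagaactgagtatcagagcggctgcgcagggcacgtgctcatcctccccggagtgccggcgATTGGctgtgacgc

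In these windows the antioxidant response element core stood upstream of Psmb5 and Psmb6, at 47 and 9 bases before the start. Psmb8 held a STAT-type match at 97 bases before the RefSeq start used, and Psmb9 an inverted CCAAT box at 8 bases before its own. By the GENCODE coordinates both matches lie inside the gene. Psmc1 held 3 ETS cores, at 100, 62 and 28 bases before the RefSeq start used, the last of them inside the gene by the GENCODE coordinates. None of the Psmb8, Psmb9 and Psmb10 windows held the ETS core, and the Psmb10 window held no match to any of the 5 motifs, which says only that these letters are not there.

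Windows of 300 bases (250 before to 50 after the RefSeq start) were used for 38 proteasome genes, 41 windows in all. Proteasome genes on chromosome 18 (Psma8 and Psmg2) were left out of these, while the shares for all tested genes and for all windows had no such exclusion. The ETS core was in 53.7% of them, in 32.0% of the windows of all tested genes and in 16.9% of all 32851 windows. For the interferon-type motif the shares were 9.76% (Psmb3, Psmd4, Psmd9 and Psme1), 3.14% and 3.44%. The antioxidant core was in 14.6%, 14.5% and 12.4%, the CCAAT box in 31.7%, 38.1% and 37.4%, and the STAT site in 7.32%, 6.87% and 8.30%. Of the 11 genes that were lower on complete junctions and had a window, 5 (Psma4, Psmc1, Psmd12, Psmd13 and Psme3) held the ETS core. A match describes letters and is no evidence of binding.

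On the sum over all junctions, 5 of the 45 tested proteasome genes were lower in the knockout libraries (limma, Benjamini-Hochberg adjusted p under 0.05 over 11003 genes): Psmb8, Psmb10, Psmc1, Psmd3 and Psmg2. This is 11.1% of them, beside 12.1% lower among all genes tested. One gene, Psme2, was higher, beside 8.49% of all genes tested. With the replicate number as a block, which pairs libraries with the same number, 9 were lower and 1 higher, beside 15.7% and 12.3% of all genes.

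On complete junctions, 13 of the 45 (28.9%) were lower and none higher, beside 16.6% lower and 10.5% higher among 10969 genes. At an unadjusted p under 0.05, 24 (53.3%) were lower and 0 higher, beside 24.4% lower among all genes. Of the 45, 38 differences were negative, against 57.1% of all genes, and their median was -0.23 on the log2(RPM + 1) scale, knockout minus wild type, against -0.07 over all genes. Both groups did not overlap, with knockout lower, for 16 genes (35.6%), beside 18.1% of all genes. The 2 sums shared 4 of their calls: Psmb8, Psmb10, Psmc1 and Psmg2.

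Another scaling of the libraries (TMM) moved the median of all genes by 0.07, to -0.00, and on complete junctions 10 proteasome genes then stayed lower, with a median of -0.16 and none higher. All genes then split into 12.6% lower and 12.7% higher. Psma5, Psmd13 and Psme1 lost their calls under it. Without both libraries numbered 4, 18 were lower, all 13 among them, beside 19.7% of all genes. In bulk samples, fewer cells of a type and less RNA per cell cannot be told apart.

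**Figure D1:**
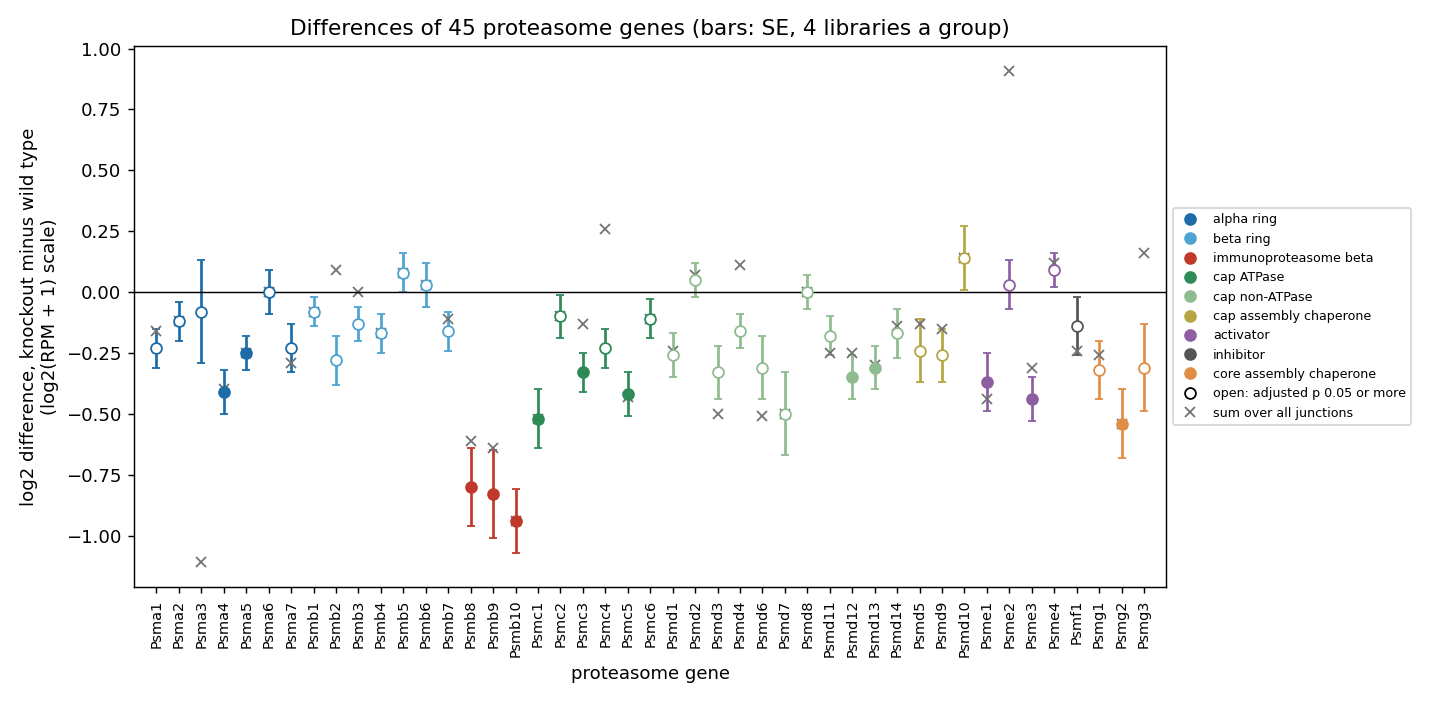
Log2 differences (knockout minus wild type, log2(RPM + 1) scale) of the 45 tested proteasome genes, coloured by class. Circles with standard error bars are sums over complete junctions, filled where the adjusted p is under 0.05; crosses are sums over all junctions. Among the circles, the 3 red immunoproteasome genes lie lowest, between -0.94 and -0.80, and the cross of Psme2 at 0.91 stands far above its circle at 0.03.

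Psmb10, the immunoproteasome subunit that takes the place of the trypsin-like Psmb7 (chromosome 8, 105935735 to 105938444), was the gene with the smallest adjusted p of the 45. Its level was 99.9, 133, 131 and 150 RPM in wild-type libraries 1 to 4, and 55.8, 71.0, 67.8 and 68.8 RPM in knockout libraries 1 to 4. The groups did not overlap, and the knockout libraries lay close together, library 4 included. Over all junctions the log2 difference was -0.94 ± 0.14 (SE, n = 4 per group, limma adjusted p = 0.00409), and it passed the threshold in all 19 alternatives. On complete junctions it was -0.94 ± 0.13 (SE, n = 4 per group, limma adjusted p = 0.00225), and it passed in all 11 alternatives. Psmb10 had no dropped value, and each of its 7 junctions was lower without overlap, by log2 ratios from -1.08 to -0.88.

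Psmb8, which takes the place of the chymotrypsin-like Psmb5 (chromosome 17, 34197721 to 34201454), had 122, 129, 143 and 172 RPM on complete junctions in wild type. In the knockout libraries it had 73.3, 69.2, 76.1 and 107 RPM. Knockout library 4 was the highest of its group but still below every wild-type library. The difference was -0.80 ± 0.16 (SE, n = 4 per group, limma adjusted p = 0.0077). Over all junctions, knockout library 2 rose to 119 RPM, through a pair of junctions that had dropped in every other library, and the difference was -0.61 (limma adjusted p = 0.0477, lost when any of 6 libraries was left out, the exceptions being knockout 2 and 4).

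Psmb9, in place of the caspase-like Psmb6 (chromosome 17, 34181987 to 34187764), had 63.5, 71.2, 65.9 and 107 RPM on complete junctions in wild type, and 40.6, 35.1, 42.8 and 50.5 RPM in knockout libraries. Wild-type library 4 was the highest of all, and no knockout library reached the lowest wild-type one. The difference was -0.83 ± 0.18 (SE, n = 4 per group, limma adjusted p = 0.0106). Over all junctions knockout library 4 stood at 65.8 RPM, inside the wild-type range, and the gene missed the threshold (-0.64, limma adjusted p = 0.058). With the replicate block it passed (limma adjusted p = 0.00432). All 4 of its complete junctions with a mean of at least 100 reads were lower without overlap.

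None of the 3 constitutive catalytic genes was called by limma, on either sum or at an unadjusted p under 0.05. Psmb5 had 101, 106, 122 and 116 RPM in wild-type cells and 116, 128, 110 and 117 RPM in knockout libraries, a difference of 0.08 ± 0.08 (SE, n = 4 per group, limma adjusted p = 0.50). Psmb6 had 67.4, 69.2, 71.8 and 78.8 RPM, then 74.8, 81.7, 65.9 and 71.1 RPM (0.03 ± 0.09, limma adjusted p = 0.839). Psmb7 had 187, 187, 194 and 193 RPM, then 164, 180, 149 and 191 RPM on complete junctions (-0.16 ± 0.08, limma adjusted p = 0.193). The groups overlapped for all 3, and a missed threshold does not show that they were equal.

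**Figure D2:**
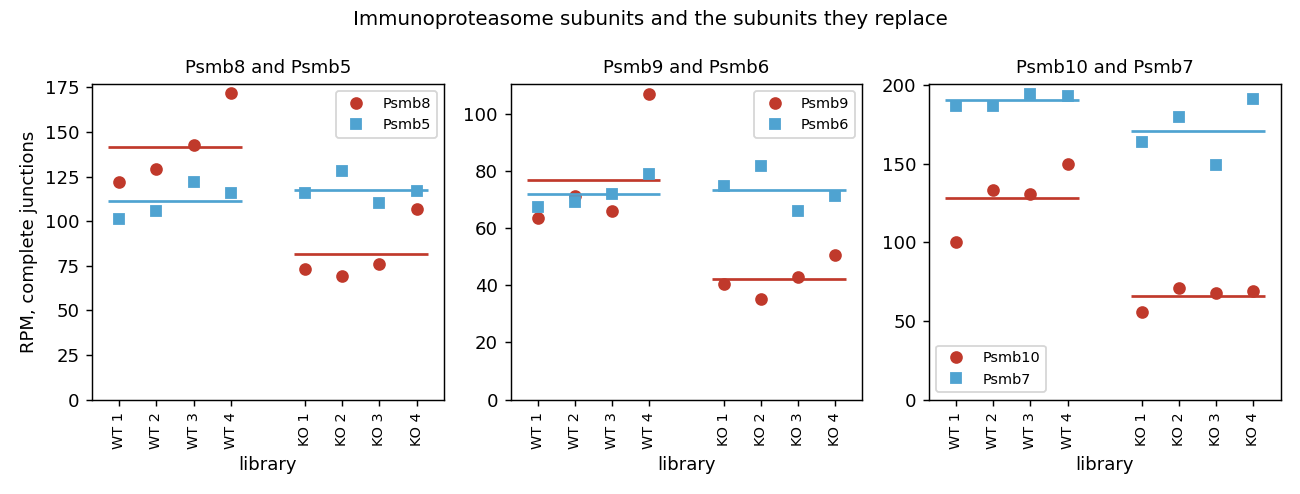
RPM over complete junctions (y axis, from 0) in each of the 8 libraries (x axis) for the 3 immunoproteasome genes (red circles) and the subunits they replace (blue squares); horizontal lines are group means. Psmb8 lies between 122 and 172 in wild type and between 69.2 and 107 in knockout libraries, while Psmb5 stays between 101 and 128 throughout.

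Within a library, the ratio of each immunoproteasome gene to its counterpart does not depend on library scaling. The log2 ratio of Psmb8 to Psmb5 on complete junctions was 0.27, 0.27, 0.23 and 0.56 in wild type and -0.66, -0.88, -0.53 and -0.12 in knockout libraries. It differed by -0.88, that of Psmb9 to Psmb6 by -0.86 and that of Psmb10 to Psmb7 by -0.79. Each had an exact permutation p of 0.0286 (two-sided, 4 against 4, also after adjustment over the 3 ratios), the smallest that 70 splits allow. The splits treat all libraries as exchangeable and ignore the pairing by replicate number, and the ratios were not tested with that pairing. Over all junctions the differences were -0.69 (exact permutation adjusted p = 0.0429), -0.67 (0.0571) and -0.84 (0.0429), so the Psmb9 ratio missed the threshold there.

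Expressed per junction, so that genes with different numbers of junctions can be set side by side, Psmb8 made up 55.7% ± 2.64 of the sum of Psmb8 and Psmb5 in wild type and 40.6% ± 5.39 in knockout libraries (SD, n = 4 each). Psmb9 made up 44.2% ± 4.46 and 30.5% ± 4.64 of its pair with Psmb6. Psmb10 made up 32.4% ± 3.42 and 21.6% ± 2.18 of its pair with Psmb7. In all 3 pairs the highest knockout library lay below the lowest wild-type library. In wild-type cells Psmb8, at 70.7 ± 11.1 RPM per junction (SD, n = 4), was the highest of all proteasome genes by this measure, with Psmb1 at 64.1 ± 1.87 within that spread.

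In the alpha ring, 2 of 7 tested genes were lower on complete junctions, beside 16.6% of all genes. None was lower on all junctions, beside 12.1% of all genes (1 at an unadjusted p under 0.05 there, limma). Psma4 had 60.2, 65.6, 57.6 and 59.8 RPM in wild-type cells and 46.4, 46.7, 39.5 and 50.2 RPM in knockout libraries, with no overlap. Its difference was -0.41 ± 0.09 (SE, n = 4 per group, limma adjusted p = 0.0125), and it passed in all 11 alternatives on complete junctions. Over all junctions, where 18 of its values had dropped, it was -0.40 with a wider error of 0.23 (limma adjusted p = 0.255). Psma5 had 265, 265, 307 and 293 RPM, then 231, 227, 232 and 258 RPM, and fell by 0.25 (limma adjusted p = 0.0372; 0.0577 over all junctions). That call was lost when any library other than knockout 4 was left out.

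Psma2, the alpha gene with the most reads, had 377, 400, 421 and 424 RPM in wild-type cells and 368, 368, 340 and 419 RPM in knockout libraries (-0.12, limma adjusted p = 0.289). Psma1 (-0.23) and Psma7 (-0.23) had adjusted p of 0.0724 and 0.107 in limma, and both passed without the libraries numbered 4 (0.0396 and 0.0416). Over all junctions they were at -0.16 and -0.29 (0.621 and 0.598). Psma6 showed 0.00. Psma3 could hardly be measured: over all junctions it ranged from 5.21 to 151 RPM with 19 dropped values, and its complete junctions summed to only 2.94 to 5.56 RPM. Psma8, the testis-type alpha subunit, lay between 0 and 2.28 RPM on a mean under 1 RPM and was not tested.

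None of the 7 constitutive beta genes was called, on either sum, by limma (at an unadjusted p under 0.05, 1 was lower on complete junctions and 0 on all junctions). Of all genes, 16.6% were called lower on complete junctions and 12.1% over all junctions. Psmb1, the beta gene with the most reads, had 324, 311, 315 and 332 RPM in wild-type cells and 302, 307, 291 and 318 RPM in knockout libraries, which overlapped (-0.08, limma adjusted p = 0.356). Psmb2 was lowest of the ring, at -0.28 (limma adjusted p = 0.059), with 1 complete junction of at least 100 reads behind it, and had the opposite sign over all junctions (0.09, 0.921). Psmb3 and Psmb4, structural beta subunits, stood at -0.13 and -0.17, and Psmb3 at 0.00 over all junctions.

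In the ATPase ring of the cap, 3 of 6 genes were lower on complete junctions, beside 16.6% of all genes: Psmc1, Psmc3 and Psmc5. Over all junctions 1 of the 6 was lower, beside 12.1% of all genes. Psmc1, the ATPase gene with the most reads (chromosome 12, 100110154 to 100123405), had 302, 319, 376 and 364 RPM in wild-type cells and 208, 224, 225 and 296 RPM in knockout libraries. Knockout library 4 came within 6 RPM of the lowest wild-type library, while the other 3 lay well below. The difference was -0.52 ± 0.13 (SE, n = 4 per group, limma adjusted p = 0.0235 over all junctions and 0.0154 on complete junctions). All 10 of its junctions were lower, 6 without overlap. Over all junctions the call was lost without any 1 of 6 libraries, all except wild type 1 and knockout 4, and on complete junctions it was kept in all 11 alternatives.

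Psmc5 had 109, 106, 113 and 119 RPM on complete junctions in wild type and 73.3, 87.6, 78.8 and 93.7 RPM in knockout libraries. The groups did not overlap, and the difference was -0.42 ± 0.09 (SE, n = 4 per group, limma adjusted p = 0.0101; -0.43 with 0.142 over all junctions). Psmc3 had 149, 144, 146 and 163 RPM, then 125, 120, 105 and 128 RPM, also without overlap (-0.33 ± 0.08, limma adjusted p = 0.0165). Over all junctions, with 24 dropped values, Psmc3 stood at -0.13 (0.708). Psmc2, Psmc4 and Psmc6 were at -0.10, -0.23 and -0.11 and were not called. Psmc4 was at 0.26 over all junctions, the opposite sign.

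Of the 11 non-ATPase subunits of the cap, 2 (18.2%) were lower on complete junctions, close to the 16.6% of all genes. Over all junctions 1 (9.09%) was lower, beside 12.1% of all genes. Psmd12, a scaffold subunit of the lid, had 66.2, 66.7, 73.3 and 68.9 RPM in wild-type cells and 50.9, 57.9, 48.2 and 59.0 RPM in knockout libraries (-0.35 ± 0.09, limma adjusted p = 0.0191, lost without knockout 1 or knockout 3; -0.25 with 0.303 over all junctions). Psmd13, another lid subunit, had 30.9, 31.0, 27.3 and 28.9 RPM, then 24.2, 23.3, 21.7 and 25.0 RPM (-0.31 ± 0.09, limma adjusted p = 0.0304; -0.30 with 0.386 over all junctions). Its value rests on 1 complete junction of at least 100 reads, since 36 of its values had dropped, and the call was lost without any 1 of wild type 1, 2 or 4 or knockout 1, 2 or 3. Neither gene's groups overlapped.

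Psmd3, a further lid subunit, was called over all junctions, with 136, 151, 161 and 155 RPM in wild-type cells and 100, 108, 95.7 and 123 RPM in knockout libraries (-0.50 ± 0.10, limma adjusted p = 0.0119). On complete junctions it had 117, 129, 135 and 133 RPM, then 86.3, 108, 95.6 and 123 RPM, with overlap through knockout library 4, and missed the threshold (-0.33, limma adjusted p = 0.0585). It passed with the replicate block (limma adjusted p = 0.0186) and without both libraries numbered 4 (limma adjusted p = 0.0182). Psmd7, the partner of the deubiquitinase Psmd14, had a difference of similar size (-0.50) but a wide spread, and was called only with the block or without libraries numbered 4 or knockout 4 (limma adjusted p = 0.0627, then 0.00311 with the block). Psmd1, a large base subunit, moved from a limma adjusted p of 0.0714 to 0.0325 with the block, and to 0.0137 without both libraries numbered 4. Psmd14 itself, which removes ubiquitin chains, was at -0.17 (0.267).

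Psmd2, the base subunit with the most reads, had 385, 394, 429 and 425 RPM in wild-type cells and 400, 435, 403 and 450 RPM in knockout libraries (0.05, limma adjusted p = 0.644). Psmd8 was at -0.00 and Psmd4, a ubiquitin receptor, at -0.16, with the opposite sign over all junctions (0.11, 0.657). The others, Psmd6 and Psmd11, were at -0.31 and -0.18, with adjusted p of 0.114 and 0.113 (-0.51 and -0.25 over all junctions, with 0.201 and 0.214). The 3 chaperones that help build the cap base, Psmd5, Psmd9 and Psmd10, were at -0.24, -0.26 and 0.14, and none was called (limma; 1 was lower at an unadjusted p under 0.05). Psmd9, with the most reads of them, had 29.1, 30.3, 32.6 and 30.4 RPM, then 27.2, 22.2, 23 and 29.8 RPM, which overlapped.

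**Figure D3:**
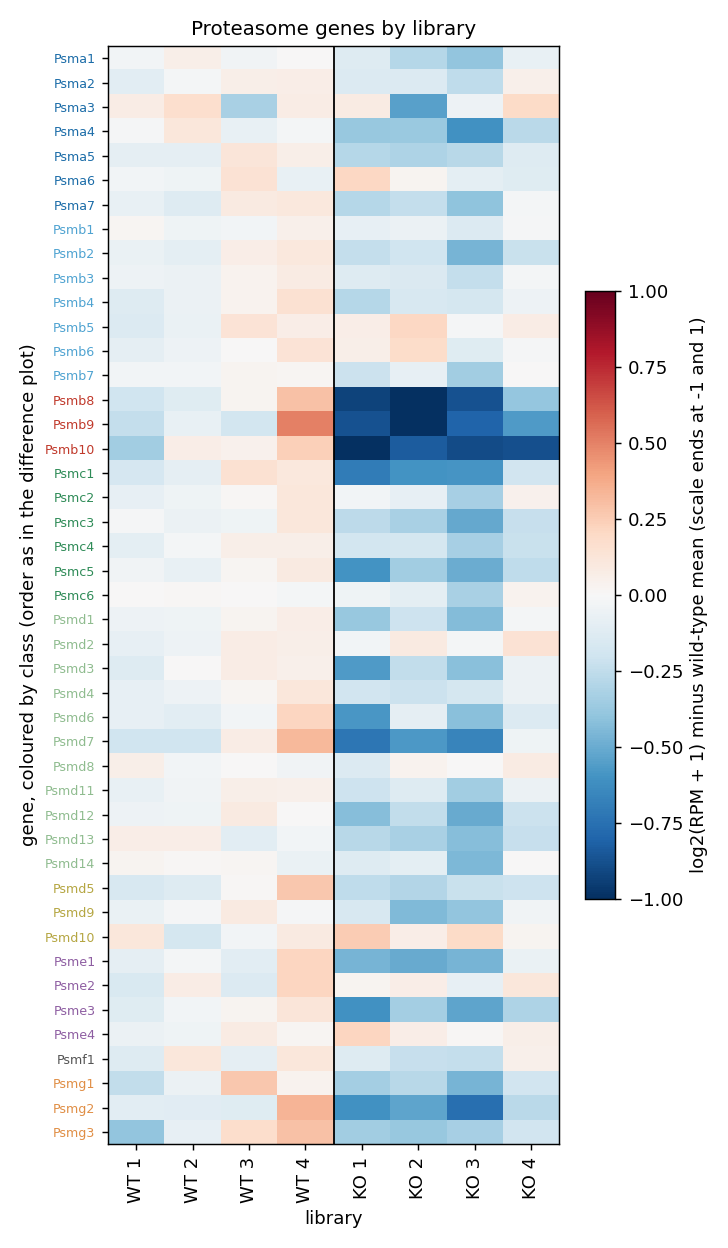
Each of the 45 tested proteasome genes (rows, coloured by class) in the 8 libraries (columns), as log2(RPM + 1) on complete junctions minus the wild-type mean; blue is lower and red higher, and the colour scale ends at -1 and 1. The immunoproteasome rows are darkest, and knockout library 4 is the palest of the 4 knockout columns.

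Among the activators, which open the core without the ATPase cap, Psme3 (a homo-oligomeric activator of the nucleus) had 114, 122, 127 and 135 RPM on complete junctions in wild type and 81.2, 98.2, 85.9 and 100 RPM in knockout libraries. The groups did not overlap, all 4 complete junctions with at least 100 reads were lower, and the difference was -0.44 ± 0.09 (SE, n = 4 per group, limma adjusted p = 0.0089; -0.31 with 0.0803 over all junctions). Psme1 and Psme2, whose products form the interferon-inducible activator together, lie near each other on chromosome 14 (55578123 to 55581529 and 55587441 to 55591113). Psme1 had 91.3, 95.7, 90.4 and 113 RPM, then 70.3, 68.4, 70.1 and 92.7 RPM, with knockout library 4 inside the wild-type range (-0.37, limma adjusted p = 0.0458; -0.44 with 0.0989 over all junctions). That call was lost when any library other than knockout 4 was left out. Psme4, the large activator, had 296, 299, 326 and 312 RPM, then 357, 322, 311 and 321 RPM (0.09, limma adjusted p = 0.37).

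For Psme2 the 2 sums gave different results. Why junction values dropped is not known and was not tested. Over all junctions it had 106, 171, 169 and 150 RPM in wild-type cells and 244, 394, 211 and 286 RPM in knockout libraries, a difference of 0.91 ± 0.22 (SE, n = 4 per group, limma adjusted p = 0.023) without overlap. Of its 11 junctions, 7 held 31 dropped values. The junction E2.1-E3.2 had 3, 2, 1 and 1 reads in wild type and 1426, 1157, 2 and 1674 reads in knockout libraries. On the complete junctions Psme2 had 65.5, 77, 66.5 and 85 RPM, then 74.4, 76.7, 68.8 and 79.2 RPM, which overlapped (0.03 ± 0.10, limma adjusted p = 0.853). Reads of Psme2 may also be shared with Psme2b, a near-identical copy not analysed here.

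**Figure D4:**
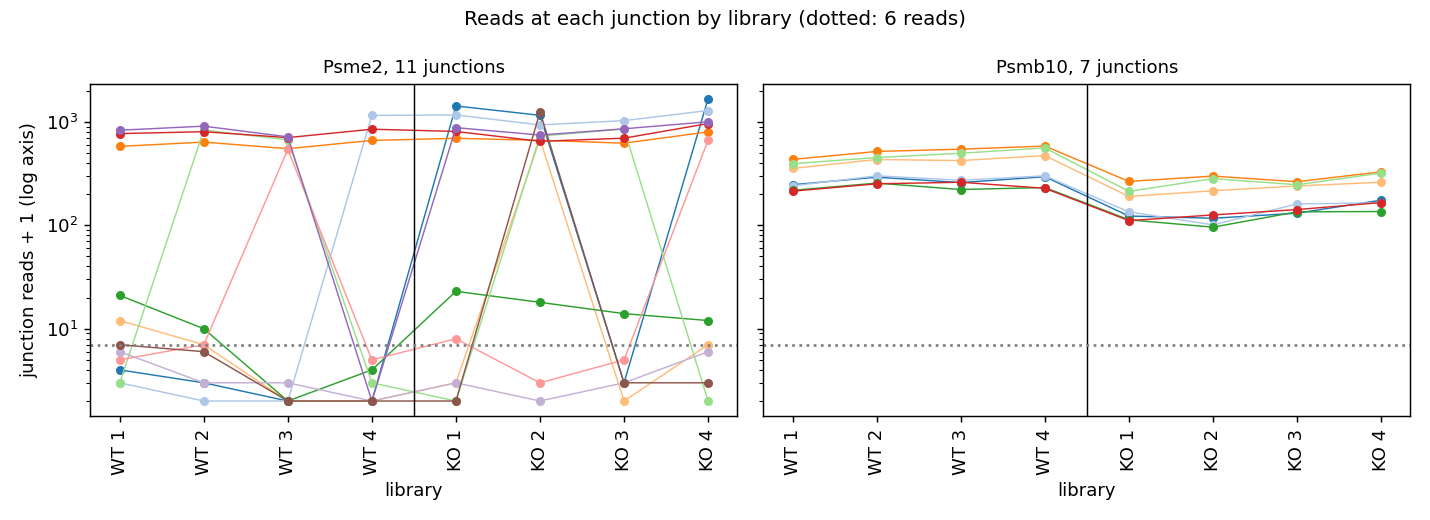
Reads plus 1 at each junction (log axis) in each library for Psme2 (left) and Psmb10 (right); each colour is 1 junction, and the dotted line marks 6 reads. Psme2 junctions jump between a few reads and over 1000 reads from library to library, while the 7 Psmb10 junctions stay together and are all lower in the knockout libraries.

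Psmf1, the inhibitor of the core, had 15.1, 18.0, 15.5 and 18.0 RPM in wild-type cells and 15.1, 14.0, 13.9 and 17.2 RPM in knockout libraries (-0.14, limma adjusted p = 0.42). Of the 3 chaperones that pair alpha subunits into rings, Psmg2 was lower, with 43.2, 42.9, 42.6 and 59.3 RPM, then 30.3, 31.9, 27.2 and 38.4 RPM. The groups did not overlap, and wild-type library 4 stood above the other 3. The difference was -0.54 ± 0.15 (SE, n = 4 per group, limma adjusted p = 0.0364 over all junctions; 0.0236 on complete junctions, lost without knockout 1, 2 or 3). Over all junctions the call was lost when any library other than knockout 4 was left out. Its partner Psmg1 was at -0.32 (0.0854) and Psmg3 at -0.31 (0.225), both uncalled. Over all junctions Psmg3 had the opposite sign (0.16, 0.818).

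The shift was uneven between libraries. Of the 13 genes lower on complete junctions, knockout library 4 was the highest of its group for 12, and of all 45 for 36. Knockout library 3 was the lowest of its group for 24 of the 45, and wild-type library 4 the highest of its group for 24. The median over the 45 genes, against the wild-type mean, was -0.24, -0.23, -0.35 and -0.06 in knockout libraries 1 to 4, and -0.08, -0.05, 0.03 and 0.08 in wild type. The immunoproteasome genes were below the wild-type mean in library 4 too, with a median of -0.56 beside -0.93, -1.01 and -0.88 in libraries 1 to 3. The neutrophil genes ran the same way, lowest among knockout libraries in library 4, and their part in the proteasome differences was not tested.

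Junctions of a gene mostly moved together. Of the 247 complete junctions with a mean of at least 100 reads, 195 were lower and 52 higher in the knockout libraries. In 33 of 44 genes every such junction was lower, in 2 (Psmb5 and Psmd10) every one was higher, and in 9 both signs occurred. Psme4, with 28 of 37 junctions higher, gave most of the rises. Junctions of 1 gene share reads and are not replicates. Junction signs were not counted for the other genes of the table. By gene, 57.1% of all genes tested had a difference below 0 on complete junctions, so part of this lean is shared by all genes.

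Proteins that work with the proteasome were followed as a list of 14 genes, of which 13 were tested and 2 (15.4%) were lower on complete junctions, both deubiquitinases of the cap, beside 16.6% of all genes. Over all junctions 0 of the 13 were lower, beside 12.1% of all genes (limma, with 4 lower at an unadjusted p under 0.05). Usp14 had a mean of 94.9 ± 6.04 RPM in wild-type cells and 67.1 ± 8.42 RPM in knockout libraries (SD, n = 4 each; -0.50, limma adjusted p = 0.0079; -0.27 with 0.375 over all junctions). Uchl5 had 214 ± 9.14 and 174 ± 20.2 RPM (-0.31, limma adjusted p = 0.0334; 0.0508 over all junctions). Pomp, the maturation factor of the core, stood at -0.31 (limma adjusted p = 0.0914, with 0.0141 under the block and 0.0179 without both libraries numbered 4). Adrm1, the ubiquitin receptor that holds Uchl5, was at -0.17 (0.126). Sem1, a small lid subunit outside the naming rule, had 194 ± 12.3 and 233 ± 21.2 RPM (0.26, limma adjusted p = 0.0506). Its limma adjusted p was 0.0165 with the block and 0.0099 without both libraries numbered 4. Akirin2, a factor for nuclear import of proteasomes, was at 0.00. With the block the list had 5 lower and 2 higher, beside 22.1% and 15.6% of all genes.

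Of 12 tested regulators of proteasome genes, 1 was lower and 1 higher on complete junctions, beside 16.6% and 10.5% of all genes. Nfe2l1, the main activator of these genes when proteasome activity is low, had 20.7 RPM in both groups (SD 2.69 and 1.68, n = 4 each; 0.00, limma adjusted p = 0.997). Nfe2l2 had 52.3 ± 2.72 and 62.1 ± 6.21 RPM (0.24, limma adjusted p = 0.0764), and Ddi2, the protease that activates the Nfe2l1 protein, was not analysed here. Mafg, a small partner of both factors, rose from 21.0 ± 2.88 to 33.8 ± 5.13 RPM (0.66, limma adjusted p = 0.0101). Stat3 fell from 88.5 ± 8.99 to 59.3 ± 7.14 RPM (-0.57, limma adjusted p = 0.00736).

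Of 18 tested genes that supply ubiquitin or carry substrates to the proteasome, 6 were lower and 2 higher on complete junctions, beside 16.6% and 10.5% of all genes. Over all junctions the counts were 0 and 2, beside 12.1% and 8.49% (limma; 3 were lower at an unadjusted p under 0.05). Ubb, a polyubiquitin gene, rose from 723 ± 16.2 to 951 ± 38.2 RPM (0.39, limma adjusted p = 0.00217). Its repeated units make reads hard to place. Usp5, which recycles free ubiquitin chains, was the member with the smallest p among those that fell, from 63.8 ± 3.29 to 46.8 ± 3.77 RPM (-0.44, limma adjusted p = 0.00624; -0.06 with 0.85 over all junctions). Ubqln1, a shuttle factor, was at -0.31 (0.0272), and at -0.10 (0.574) over all junctions. Under TMM scaling only 1 of the 18 was lower and 3 were higher.

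Class I antigen processing uses the peptides made by the immunoproteasome. Tap2, a chain of the peptide transporter, had 179, 176, 187 and 225 RPM in wild-type cells and 88.2, 70.9, 94.8 and 119 RPM in knockout libraries, without overlap (-1.05, limma adjusted p = 0.00254), and Erap1, which trims the peptides, from 151 ± 7.93 to 96.7 ± 2.85 RPM (-0.64, limma adjusted p = 0.000798). H2-T23 rose from 60.2 ± 7.30 to 109 ± 14.7 RPM (0.85, limma adjusted p = 0.00243) and Pdia3, of the loading complex, from 814 ± 75.2 to 1080 ± 90.1 RPM (0.41, limma adjusted p = 0.0105). Both calls were lost over all junctions, with 0.68 (0.0806) for H2-T23 and 0.40 (0.0625) for Pdia3. Reads of class I heavy chain genes can be shared between near-identical copies. In all, 2 of 13 were lower and 3 higher on complete junctions, beside 16.6% and 10.5% of all genes. Over all junctions 2 were lower and 1 higher, beside 12.1% and 8.49% of all genes. The gene called higher on both sums was H2-D1, whose groups overlapped. Its difference was 0.51 (limma adjusted p = 0.0235 on complete junctions and 0.034 over all junctions). Tap2 lies beside Psmb8 and Psmb9 on chromosome 17 (34203527 to 34216321), with Tap1, named here after its values were seen, between them (34187553 to 34197225). Tap1 was at -0.39 (limma adjusted p = 0.186, with 0.00307 under the block and 0.00662 without both libraries numbered 4).

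No tested gene of the interferon response was lower. Of 16 genes, 11 were tested, 4 were higher and 0 lower on complete junctions, beside 10.5% higher and 16.6% lower of all genes (limma; 0 lower at an unadjusted p under 0.05 as well). Zbp1 rose from 5.52 ± 0.799 to 21.6 ± 5.30 RPM (1.76, limma adjusted p = 0.00117), Oas3 from 5.65 ± 1.52 to 19.7 ± 8.80 RPM (1.57, 0.00698), Gbp2 from 8.53 ± 2.51 to 17.3 ± 5.04 RPM (0.94, 0.0247) and Bst2 from 93.5 ± 2.62 to 123 ± 4.83 RPM (0.39, 0.00331). Irf1, a regulator of the response, was at -0.35 (0.292). Whether the immunoproteasome and interferon groups differ from each other was not tested.

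Other complexes of protein folding and turnover also had many lower genes. On complete junctions 12 of 22 were lower and 1 higher, beside 16.6% and 10.5% of all genes. Over all junctions 5 were lower and 1 higher, beside 12.1% and 8.49% of all genes. Chaperonin subunits were among them, with Cct8 at -0.47 (limma adjusted p = 0.0077), Cct5 at -0.49 (0.00833) and Cct2 at -0.29 (0.0104). Cct5 was not called over all junctions (-0.16, 0.57). The gene that rose was Npepps, a cytosolic aminopeptidase, from 130 ± 7.97 to 285 ± 38.5 RPM (1.12, limma adjusted p = 0.000581). The share of lower genes in this list was 54.5%, beside 28.9% for the proteasome genes and 16.6% for all genes, and the difference between lists was not tested.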

How the data were processed

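RNA from 8 libraries was sequenced from strand-specific libraries made from total RNA. The submitters' processing notes name Trimmomatic 0.39, kallisto and build mm10; aligner and annotation: not given in the sources used here. The authors deposited 1 normalised signal value for each exon junction and library. Tested on the values, each was the read count plus 1 over the library total and 60 nt, with a floor of 0.854 for 0 reads; reads were recovered whole within 0.001 of a read, summed per gene and scaled to RPM. A fragment spanning several junctions counts at each.

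Genes whose mean reached 1 RPM were tested with limma 3.58.1 (trend, robust) on log2(RPM + 1), with Benjamini-Hochberg adjustment over all genes and a threshold of 0.05; low genes are understated on that scale. The test was checked on simulated independent counts, without dropped values or likeness between same-numbered libraries. That check does not cover these features of the data. A value was called dropped at 6 reads or fewer where the other junctions of its gene pointed to 100 or more. Members, classes and lists were chosen with earlier results of these data known. Every library's value is given for Psmb5 to Psmb10, for the called member with the smallest adjusted p and the member with the most reads in each class, and for members whose call differs between sums; from other lists, fixed partners and up to 4 called members with the smallest adjusted p are named, and a few others were added after their values were seen; some list members are not reported here. Same-numbered libraries were alike: deviations from group means correlated at 0.32, 0.29, 0.36 and 0.55 between them and at most 0.15 otherwise. Deviations from a group mean cancel out, so the other correlations are partly lowered by construction. The labels do not say that same-numbered libraries are pairs. No 2 libraries were copies of each other (chi-square per degree of freedom 29.4 or more within groups). Gene coordinates are GENCODE M21, build mm10.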

Additional observations from a re-analysis of the deposited data

Results flagged for a closer look

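Of 90 groups of 4 libraries (45 genes, both genotypes, complete junctions), 4 held a library far from the other 3, by a gap above Dixon's critical share of the group's range; chance alone gives about 1 in 20. Psma5 stood at 258 RPM in knockout library 4, beside 227 to 232 RPM in the other 3. Psme1 stood at 92.7 RPM in the same library, beside 68.4 to 70.3 RPM. Psmb2 stood low in knockout library 3, at 23.4 RPM beside 27.5 to 28.3 RPM. Psmg2 stood high in wild-type library 4, at 59.3 RPM beside 42.6 to 43.2 RPM.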

How the results depend on the processing

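Over all junctions, 5 proteasome genes were lower and 1 higher. The lower count became 13 without junctions holding a dropped value, 10 with the most-read junction alone, 9 with the median over junctions, 8 without both libraries numbered 4, and 2 to 10 with single libraries left out (10 without knockout 4). The higher count became 0 under each of these 4 settings and 0 to 1 with single libraries left out (0 without wild type 1). Psme2 reversed to -0.07 with the most-read junction alone (limma adjusted p = 0.661). Over all genes, 1330 were lower and 934 higher; leaving out libraries gave 706 to 1742 and 509 to 1249, and the median over junctions gave 616 higher. TMM scaling, pseudocounts of 0.5 and 5, no filter and a filter of 10 RPM gave 4 to 6 lower and 1 higher proteasome genes.

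Pairing libraries by number (the replicate block) gave 9 lower and 1 higher over all junctions, and 16 lower and 0 higher on complete junctions, with 2426 lower and 1710 higher of all genes. What a number stands for is not given in the labels.

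On complete junctions, leaving out single libraries gave 8 (without knockout 1 or 3) to 20 (without knockout 4) lower proteasome genes and 0 higher, and 1170 to 2321 lower and 729 to 1549 higher genes in all. These leave-outs, TMM and the omission of both libraries numbered 4 on complete junctions were chosen after seeing the data. Psma4, Psmb8, Psmb9, Psmb10, Psmc1, Psmc3, Psmc5 and Psme3 passed in all 11 alternatives.

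The ratio of Psmb9 to Psmb6 (-0.67) passed the threshold at -0.86 without dropped junctions, -0.86 with the most-read junction and -0.72 with the median. Without both libraries numbered 4, Psmb8 to Psmb5 was -0.69 and Psmb10 to Psmb7 -0.69, a design of 3 against 3 that cannot pass. Leaving out single libraries gave -0.77 to -0.59 for Psmb8 to Psmb5, -0.84 to -0.55 for Psmb9 to Psmb6 and -0.99 to -0.75 for Psmb10 to Psmb7. By the exact permutation test, Psmb8 to Psmb5 missed the threshold without knockout 1, 2 or 3, and Psmb10 to Psmb7 without any 1 knockout library (adjusted p = 0.0571 each). Psmb9 to Psmb6 passed without knockout 4 (exact permutation adjusted p = 0.0429), and missed it without any other single library. Count models (edgeR, DESeq2) were not run, since the deposited unit is a signal. At 17333302 junction reads or more per library, low genes such as Psmg3 and Psmd10 rest on few reads.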
